A study of Mus musculus with 24 samples.

Results

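The genes described here encode the heat shock proteins, the J-domain proteins that work with them and the BAG nucleotide exchange factors. They were taken from the array by symbol: every Dnaja, Dnajb or Dnajc gene with a number, every Hspa, Hspb, Hspd, Hspe or Hsph gene with a number, the Hsp90a genes and Bag1 to Bag6, with Hspa5 left out. The symbols matched 74 of the 19938 genes that had a probe set with exactly 1 symbol, and each gene was represented by its probe set with the highest mean. Of these, 59 lay above a filter at the 40th percentile of all such probe sets (5.863 log2 units) and were tested among 11871 genes. The 15 genes below the filter were Hspa1l, Hspa12b, Hspb1, Hspb3, Hspb7, Hspb9, Hspb11, Dnajb3, Dnajb6, Dnajb7, Dnajb8, Dnajb13, Dnajc5b, Dnajc5g and Dnajc22. The tested genes comprised 10 of 12 HSP70 and HSP110 genes, 3 of 3 genes of HSP90, HSP60 and HSP10 (Hsp90aa1, Hspd1 and Hspe1), 3 of 8 small heat shock proteins, 4 of 4 DNAJA, 8 of 13 DNAJB, 25 of 28 DNAJC and 6 of 6 BAG genes. The symbols also took in proteins of other compartments: 10 of the 74 act in mitochondria and 11 in the endoplasmic reticulum, so that the set is wider than the cytosol. Hspa1a is nearly identical to Hspa1b, and a probe set that carries both symbols was left out, so its values may hold both transcripts. Hsp90ab1, the constitutive cytosolic HSP90, had no probe set with a single symbol and was not analysed here.

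Tissue was the mediobasal hypothalamus of mice of the strain given as C57BL76J, with age and sex not given in the sources used here. In the timed sleep restriction group (TSR), gentle handling kept mice awake between ZT0 and ZT6 on 5 days, followed by 2 days of free sleep and another 5 days of restriction. Control mice (CON) were left undisturbed. Total RNA was measured on 3 arrays for TSR and 3 for CON at each of 4 times, zeitgeber time (ZT, counted in hours from lights on) 1, 7, 13 and 19, so ZT7 lies just after the daily restriction window and ZT1 within it. The day of tissue collection is not given. The design gives 3 mice for each time and condition, and the p-values reflect the spread among these arrays, some of which may be technical. In tissue RNA of this kind, fewer cells of a type and less RNA per cell cannot be told apart.

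Heat shock proteins of the HSP70 family hold unfolded protein chains and release them in a cycle driven by ATP. J-domain proteins bring the chains and start ATP hydrolysis, while HSP110 and BAG proteins exchange the nucleotide. HSP90 matures kinases and steroid receptors, HSP60 with HSP10 forms the folding chamber of mitochondria, and small heat shock proteins hold unfolded chains without ATP. Many of these genes are induced by heat shock factor 1 (HSF1), which binds heat shock elements, and in mammals transcripts of several of them follow body temperature and wakefulness over the day. Transcripts of the cold-inducible RNA-binding proteins Cirbp and Rbm3 are known to move the other way with temperature.

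Promoter windows from RefSeq (build GRCm38.p6, 250 bases before and 50 after the annotated start) were held for 60 of the 74 genes, 47 of them tested. A heat shock element of 3 units, GAANNTTCNNGAA or its reverse complement TTCNNGAANNTTC, was in the windows of 4 of the 60 genes (6.67%), against 179 of 27025 genes overall (0.662%). The 4 were Hspd1, Hspe1, Hsph1 and Dnajb6. Hspd1 and Hspe1 hold the same matches in a shared region, so the share counts that site under both genes, and Dnajb6 was not tested. A pair of units, GAANNTTC or TTCNNGAA, each its own reverse complement and contained in every 3-unit match, was in 16 of the 60 genes (26.7%) and in 17% of all genes. A gene was counted if any of its windows held a match. The windows of 4 genes that differed between TSR and CON at ZT7 are shown in lower case with every match in capitals. These 4 were picked by hand, and where a gene had several windows, one with the most matches is shown. Positions count from 0 at the base after the first 250. Hsph1 (HSP110) is shown at chr5:149636287-149636586, minus strand, with matches between -33 and 48. Hspd1 (HSP60) is shown at chr1:55087883-55088182, minus strand, with matches from -144 to -127. They lie between the start used for this window and the annotated start of Hspe1, and the Hspe1 window on the plus strand holds the same matches. The other Hspd1 window held none. Dnaja1, a J-domain partner of HSP70, is shown at chr4:40722218-40722517, plus strand, with a pair from -124 to -117. Its other windows held none. Hspa1a, the stress-inducible HSP70, is shown at chr17:34972107-34972406, minus strand, with a pair from -104 to -97. The windows of Hspa4l, Dnajb1, Hspa12a, Dnajc3, Dnajb11 and Dnajc15 held none of these letters. All of these but Dnajb1 also differed between TSR and CON at ZT7, as did Dnajb4 and Dnajc27, which held a pair.
Hsph1: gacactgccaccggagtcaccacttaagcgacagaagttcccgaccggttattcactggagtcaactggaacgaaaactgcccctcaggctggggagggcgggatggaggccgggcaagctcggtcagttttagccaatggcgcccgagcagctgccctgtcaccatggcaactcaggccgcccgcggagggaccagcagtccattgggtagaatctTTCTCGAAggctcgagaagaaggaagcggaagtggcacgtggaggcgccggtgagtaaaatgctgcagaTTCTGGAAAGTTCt
Hspd1: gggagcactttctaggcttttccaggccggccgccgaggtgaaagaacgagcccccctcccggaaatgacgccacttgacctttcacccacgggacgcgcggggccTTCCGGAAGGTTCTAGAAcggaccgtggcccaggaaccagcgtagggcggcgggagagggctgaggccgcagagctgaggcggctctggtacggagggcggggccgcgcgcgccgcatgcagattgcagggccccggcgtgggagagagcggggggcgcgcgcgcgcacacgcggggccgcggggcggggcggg
Dnaja1: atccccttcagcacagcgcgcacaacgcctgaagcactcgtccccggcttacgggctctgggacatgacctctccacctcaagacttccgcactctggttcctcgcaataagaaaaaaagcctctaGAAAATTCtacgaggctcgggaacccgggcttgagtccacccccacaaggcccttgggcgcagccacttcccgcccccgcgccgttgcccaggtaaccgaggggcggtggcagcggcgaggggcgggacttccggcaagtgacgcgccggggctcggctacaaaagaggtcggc
Hspa1a: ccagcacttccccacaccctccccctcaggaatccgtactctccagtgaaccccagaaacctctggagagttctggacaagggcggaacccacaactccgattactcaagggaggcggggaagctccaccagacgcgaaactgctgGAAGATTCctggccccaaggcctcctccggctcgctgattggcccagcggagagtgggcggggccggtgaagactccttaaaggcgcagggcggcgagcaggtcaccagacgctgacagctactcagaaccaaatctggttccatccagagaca
A match describes letters in the window and shows neither a bound site nor a cause of any change below.

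The arrays were not alike. In 4 of the 24 the interquartile range of log2 values was 2.12 to 2.25, against 2.96 to 3.29 in the other 20, and their median rank correlation with the other arrays was 0.836 to 0.881, against 0.976 to 0.986. These narrow arrays were replicate 3 of TSR at ZT1, replicate 2 of TSR at ZT13 and replicates 2 and 3 of CON at ZT19. Counts of called genes are therefore given with all 24 arrays and with the 20 arrays, and the values and calls of single genes and markers are those of the 20-array fit unless 24 arrays are named. In the 20-array fit CON at ZT19 is a single array, which is taken to vary as the remaining groups do. The median residual standard deviation was 0.361 log2 units with 24 arrays and 0.111 with 20. Each difference is the TSR mean less the CON mean in log2 units, given with its standard error, from limma, with Benjamini-Hochberg adjustment over all genes tested, and a gene was called at an adjusted p under 0.05.

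At ZT7, where all 6 arrays were of the wide kind, the HSP70 Hspa1a, the HSP110 genes Hsph1 and Hspa4l, the HSP60 gene Hspd1 and, by the brighter of its 2 probe sets, the J-domain partner Dnaja1 were among the genes higher in TSR than in CON, by 0.35 to 0.50 log2 units. With 20 arrays, 15 of the 59 genes rose (25.4%) and 3 fell (5.1%), where 13% and 13.9% of all tested genes did so. The median difference of the 59 genes was 0.11, against 0.00 over all genes, and 46 of 59 were positive (78%), against 50.2% of all genes. All 3 TSR arrays lay above all 3 CON arrays in 22 of the 59 genes, where 17.4% of all genes did so, and below them in 5, where 18.8% did. With 24 arrays the differences at ZT7 were the same and the larger residual spread left 0 of 59 genes called by limma, 1 at an unadjusted p under 0.05, with 0.43% of all genes called. A fit to the 6 arrays of ZT7 alone called 11 of the 59, 10 higher and 1 lower, where 8.81% and 8.91% of all genes were called. Of the genes named above, that fit left only Hspa1a uncalled (adjusted p = 0.0543 by limma). In the 20-array fit the count of 18 was 11 without TSR replicate 1, 10 without TSR replicate 2 and 11 without CON replicate 3 of ZT7. Marker genes of neighbouring regions also differed between the groups at this time, and their sums are given after the chaperones.

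Among HSP70 and HSP110 genes, 6 of 10 rose at ZT7 (60%), where 13% of all genes did so. All 10 differences were positive (median 0.24), against 50.2% of those of all genes. Hspa1a, the stress-inducible HSP70, had 6.28, 5.98 and 5.96 log2 units in TSR, against 5.46, 5.38 and 5.90 in CON. The groups did not overlap, although CON replicate 3 lay close to the TSR arrays, and the gene rose by 0.50 ± 0.14 (adjusted p = 0.0144). Hspa1a was a dim gene, with a mean of 5.973 over all arrays, just above the filter. Its CON mean at ZT7 was 5.58, below the filter. The limma fit to the arrays of ZT7 alone did not call it (adjusted p = 0.0543). Hsph1, an HSP110 that exchanges nucleotide on HSP70, had 10.40, 10.43 and 10.48 in TSR, against 10.13, 10.19 and 9.89 in CON, a difference of 0.37 ± 0.07 (adjusted p = 0.000884). Hspa4l, a second HSP110, had 10.22, 10.34 and 10.24 in TSR, against 9.79, 9.99 and 9.88 in CON (0.38 ± 0.06, adjusted p = 4.89e-05). In both HSP110 genes every TSR array lay above every CON array. Hspa9, the HSP70 of mitochondria, had 10.17, 10.20 and 10.18 in TSR, against 9.87, 9.90 and 9.55 in CON (0.41 ± 0.07, adjusted p = 0.000416). Hspa13, an HSP70-like protein of microsomes, rose by 0.22 and Hspa12a, a distant relative of HSP70 with an atypical ATPase domain, by 0.24. The constitutive Hspa8 had 12.36, 12.42 and 12.40 in TSR, against 12.26, 12.45 and 12.02 in CON, so the groups overlapped, and it was not called. Hspa2, known from the testis, had 6.68, 6.52 and 6.67 in TSR, against 6.57, 6.54 and 6.50 in CON, with overlapping groups and no call. Hspa4, another HSP110, and Hspa14, a ribosome-bound HSP70, were also not called, with differences of 0.23 and 0.24.

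**Figure D1:**
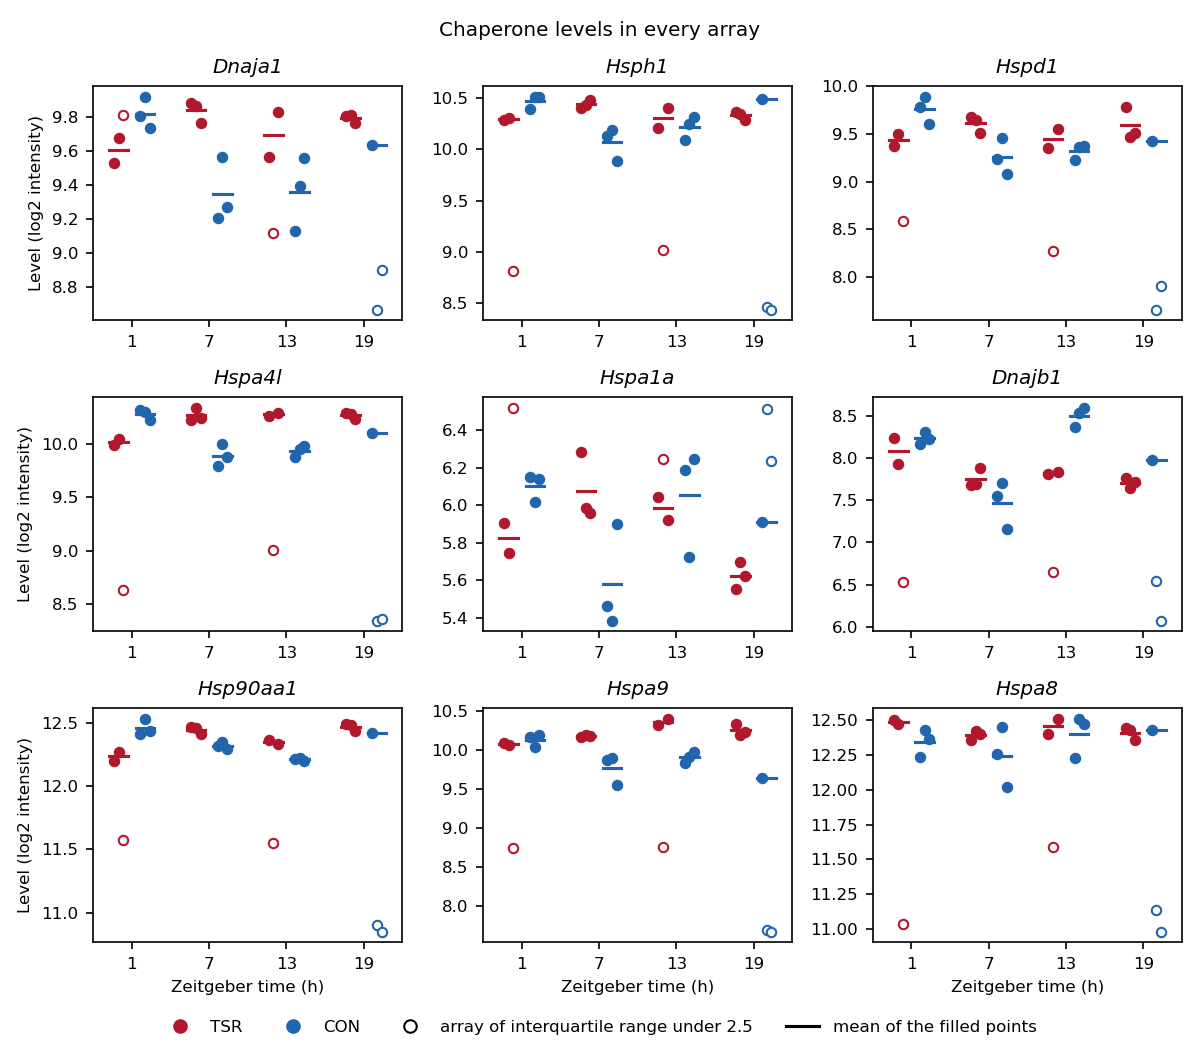
Level (log2 intensity) of 9 chaperone genes in every array by zeitgeber time, with TSR left of CON, arrays of interquartile range under 2.5 as open circles and lines at the mean of the filled circles. Dnaja1, Hsph1, Hspd1, Hspa4l and Hspa9 had all CON arrays below all TSR arrays at ZT7, and the open circles of Hspa9 at ZT19 lay at 7.69 and 7.67 in CON, against 9.65 in the remaining CON array.

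Of the other large chaperones, Hspd1 (HSP60) had 9.68, 9.65 and 9.51 in TSR at ZT7, against 9.24, 9.46 and 9.08 in CON, and rose by 0.35 ± 0.10 (adjusted p = 0.0113). Its partner Hspe1 (HSP10) had 8.33, 8.57 and 8.57 in TSR, against 8.21, 8.79 and 8.02 in CON, with overlapping groups and no call. The TSR replicate 1 value of Hspe1 was one of 4 member values whose decimal point was restored. Hsp90aa1, the inducible cytosolic HSP90, had 12.46, 12.46 and 12.41 in TSR, against 12.32, 12.35 and 12.29 in CON. The groups did not overlap and the call was a small rise of 0.13 ± 0.04 (adjusted p = 0.0171). The other probe sets of Hsp90aa1 differed by 0.08 and -0.03, and the mean of its probe sets gave 0.056 with no call, so this rise rested on the probe set chosen. The second probe set of Hspd1 gave 0.29, and the 3 probe sets of Hspa8 gave 0.15, 0.18 and 0.19.

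Among J-domain proteins, 7 of 37 rose at ZT7 and 2 fell, where 13% and 13.9% of all genes did so. Of the 25 DNAJC genes 16% rose, close to the share of all genes. Dnaja1, which delivers unfolded chains to HSP70 in the cytosol, had 9.88, 9.87 and 9.77 in TSR, against 9.20, 9.57 and 9.27 in CON. Every TSR array lay above every CON array, and the gene rose by 0.49 ± 0.10 (adjusted p = 0.00106), but its second probe set differed by only 0.12. Probe-set numbers of the members mostly run in chromosome order. By that order the brightest probe sets of Dnaja1, Hsp90aa1, Hspd1 and the untested Hspb1, which were kept, lie outside the chromosomes of these genes. The probe set of each that fits its chromosome differed by 0.12, 0.08, 0.29 and 0.46 at ZT7. Whether the kept probe sets read the gene itself or a processed copy was not checked by sequence here. Dnajb4, a cytosolic partner of HSP70 related to DNAJB1, had 9.15, 9.32 and 9.21 in TSR, against 8.83, 9.06 and 8.64 in CON (0.38 ± 0.12, adjusted p = 0.0198). The J-domain proteins of the endoplasmic reticulum Dnajc3 and Dnajb11, which serve Hspa5, rose by 0.42 and 0.39. Hspa5 itself (BiP), which the symbols leave out, rose by 0.57 at ZT7. Dnajc15, a J-domain protein of the mitochondrial inner membrane, had 9.25, 9.24 and 9.28 in TSR, against 8.57, 8.97 and 8.52 in CON (0.57 ± 0.11, adjusted p = 0.000798). Dnajc27, a small GTPase-like protein, and Dnajc2, a partner of the ribosome, rose by 0.32 and 0.31. The stress-inducible Dnajb1 had 7.68, 7.70 and 7.88 in TSR, against 7.54, 7.70 and 7.16 in CON, with overlapping groups, and its difference of 0.28 was not called.

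Several partners went the other way or stayed below the threshold at ZT7. Dnajc30, a mitochondrial J-domain protein, had 8.63, 8.68 and 8.51 in TSR, against 8.80, 9.05 and 9.03 in CON, and fell by 0.36 (adjusted p = 0.0463). Bag6, which guards exposed membrane segments of new proteins, had 9.16, 9.08 and 9.28 in TSR, against 9.48, 9.34 and 9.40 in CON, and fell by 0.23 ± 0.06 (adjusted p = 0.00519). Dnajc16 fell by 0.19. In each of these 3 genes every TSR array lay below every CON array. Among small heat shock proteins, Hspb8, which works with Bag3 in selective autophagy, had 7.41, 7.26 and 7.49 in TSR, against 7.29, 7.26 and 7.20 in CON. Its difference of 0.14 was not called, nor were those of Hspb2 (0.11) and Hspb6 (-0.04). Hspb1, below the filter and therefore untested, had 5.96, 6.08 and 6.31 in TSR, against 5.76, 5.44 and 5.70 in CON. These values are those of its kept probe set. Bag3, the stress-inducible BAG protein, had 6.26, 6.17 and 6.46 in TSR, against 6.35, 6.31 and 6.35 in CON, and the groups overlapped.

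**Figure D2:**
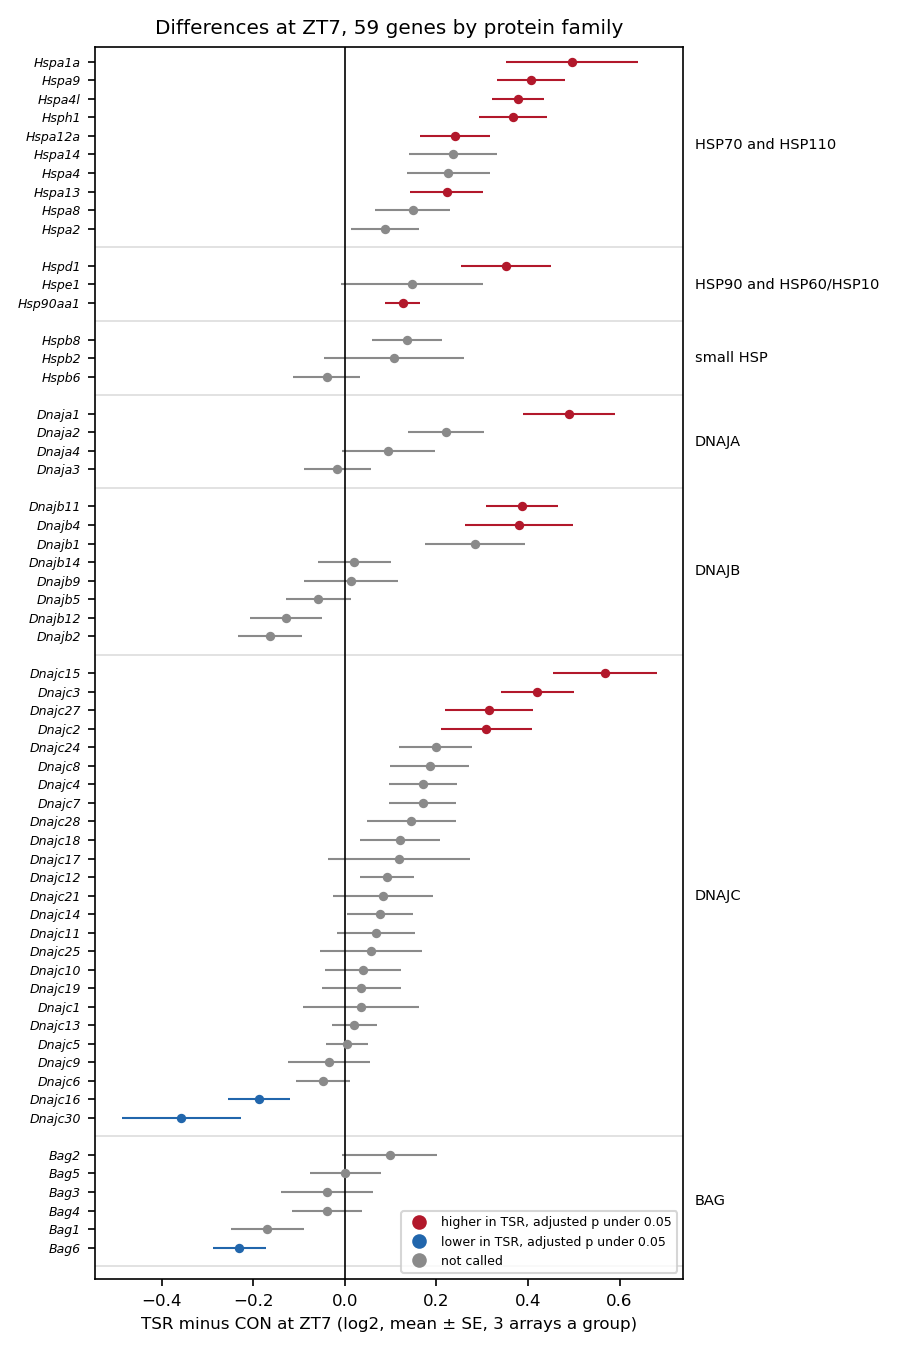
Difference between TSR and CON at ZT7 (log2, mean ± SE, 3 arrays in each group) for the 59 tested genes by protein family, with genes higher in TSR at an adjusted p under 0.05 in red, lower in blue and uncalled in grey, from the 20-array fit. All 10 HSP70 and HSP110 genes lie right of 0, whereas the BAG genes lie around or left of it.

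Levels at ZT7 were set against those at ZT1 within each condition, in a comparison added after the data were seen. With 24 arrays limma called 0 of 59 genes in TSR, 3 at an unadjusted p under 0.05, and 0 in CON, 1 at that p, where 0.00842% and 0.059% of all genes were called. The remaining values of this comparison are those of the 20-array fit. In CON, 16 of 59 genes were lower at ZT7 than at ZT1 (27.1%) and 0 were higher, where 8.98% and 4.5% of all genes were. At an unadjusted p under 0.05, 1 was higher and 23 were lower. In TSR, 7 were lower and 3 higher, where 9.54% and 2.26% of all genes were. This split depended on scaling, since after quantile normalization of the 20 arrays 4 were lower and 9 higher in TSR, whereas in CON 21 were lower and 0 higher. The CON count was 9 without replicate 2 of CON at ZT1 and 10 without replicate 3 of CON at ZT7. The TSR count of 10 was 1 and 2 without replicates 1 and 2 of ZT1 and 4 without replicate 2 of ZT7. Marker sums in CON did not overlap between ZT7 and ZT1 in 8 of 10 lists, but some can separate by chance and no such share was counted over all genes. The neuronal sum was 12509 to 13165 at ZT7, against 15446 to 15669 at ZT1 (6 of 7 members lower), and the microglial sum 873 to 897 at ZT7, against 1070 to 1110 at ZT1 (4 of 5 lower). The ependymal sum was 911 to 984 at ZT7, against 589 to 667 at ZT1 (6 of 6 higher), and the suprachiasmatic sum 2963 to 3112 at ZT7, against 2097 to 2164 at ZT1 (5 of 7 higher). All 4 tested cholinergic genes and 4 of 6 cortical and thalamic genes were lower. In TSR the oligodendrocyte sum was 5320 to 5498 at ZT7, against 7758 to 8064 at ZT1 in the wide arrays (6 of 7 lower). The part of these markers in the chaperone changes was not tested.

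In CON, Dnaja1 had 9.20, 9.57 and 9.27 at ZT7, against 9.80, 9.92 and 9.74 at ZT1, and fell by 0.47 (adjusted p = 0.00344). In TSR its values were 9.88, 9.87 and 9.77 at ZT7, against 9.53 and 9.68 at ZT1 in the wide arrays and 9.81 in the narrow one. By its kept probe set the gene was thus lower at ZT7 in every CON array and showed no call in TSR. Hsph1 in CON had 10.13, 10.19 and 9.89 at ZT7, against 10.39, 10.50 and 10.51 at ZT1 (a fall of 0.40), and Hspd1 in CON had 9.24, 9.46 and 9.08 at ZT7, against 9.79, 9.89 and 9.61 at ZT1 (a fall of 0.50). Dnajb1 showed the largest of these falls in CON, with 7.54, 7.70 and 7.16 at ZT7, against 8.17, 8.30 and 8.22 at ZT1 (a fall of 0.76, adjusted p = 9.34e-05). Hspa1a in CON had 5.46, 5.38 and 5.90 at ZT7, against 6.15, 6.02 and 6.14 at ZT1, and fell by 0.52. In Dnajb1 and Hspa1a the CON arrays of ZT7 lay below those of ZT1 without overlap. Hspa4l fell by 0.39 in CON, with 9.79, 9.99 and 9.88 at ZT7, against 10.31, 10.29 and 10.22 at ZT1. In TSR it rose by 0.25, with 10.22, 10.34 and 10.24 at ZT7, against 9.99 and 10.04 at ZT1 in the wide arrays and 8.63 in the narrow one. Hsp90aa1 likewise fell by 0.14 in CON and rose by 0.21 in TSR. Dnaja1, Hspd1 and Hsp90aa1 were read here from their kept probe sets. Levels of their other probe sets at ZT1 are not given.

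Tested directly with 20 arrays, the change between ZT1 and ZT7 differed between TSR and CON in 13 of 59 genes, 11 more positive in TSR (18.6%) and 2 more negative (3.4%), where 6.07% and 9.97% of all genes were. With 24 arrays limma called 0 of 59, 0 at an unadjusted p under 0.05, with 0.143% of all genes called. The 11 were Hspa1a (0.78), Dnaja1 (0.71), Hspd1 (0.68), Hspa4l (0.64), Hsph1 (0.54), Hspa9 (0.46), Dnaja2 (0.43), Dnajb11 (0.41), Hspa4 (0.41), Hspa12a (0.41) and Hsp90aa1 (0.35), and 6 of them are HSP70 or HSP110 genes. The other 2 were Dnajc16 (-0.46) and Hspb6 (-0.35), a small heat shock protein of muscle and brain. Hspa1a, the largest of the 11, was a dim gene whose mean lay just above the filter. After quantile normalization the split was 19 to 1, so that the share of called genes more positive in TSR was 95%, against 84.6% as deposited. Without replicate 2 of TSR at ZT1 the count was 8. The mean of all its probe sets took Dnaja1 to 0.37, which was no longer called. Hspd1 and Hsp90aa1 were also read from their kept probe sets. The comparisons at ZT7, between ZT1 and ZT7 in CON and between both conditions share the CON arrays of ZT7 and are not independent.

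Other chaperone machinery was read from lists written with earlier results of these data known. Of 19 tested HSP90 co-chaperones and heat shock factors, 7 rose (36.8%) and 2 fell (10.5%) at ZT7 with 20 arrays (median 0.17), where 13% and 13.9% of all genes did so. With 24 arrays limma called 0 of the 19, 1 at an unadjusted p under 0.05. Those that rose included Chordc1, an HSP90 partner, which rose by 0.68, St13 (HIP), which stabilises HSP70 with ADP, by 0.50, Sugt1 by 0.38, Ahsa1, the activator of HSP90 ATPase, by 0.35 and Fkbp4, an HSP90 immunophilin, by 0.28. In Chordc1 the groups overlapped, with 7.976, 8.059 and 8.064 in TSR, against 7.135, 8.007 and 6.903 in CON. The 2 that fell were the heat shock factor Hsf4 (-0.40) and Stub1 (CHIP), the ubiquitin ligase of HSP70 clients (-0.28). Of 14 subunits of the CCT chaperonin and prefoldin, which fold actin and tubulin, 6 rose (42.9%) and 0 fell (median 0.18) with 20 arrays, and limma called 0 with 24, 0 at an unadjusted p under 0.05. The 2 largest were Cct6a at 0.32 and Cct8 at 0.31. Among those 14, the most negative difference was that of the prefoldin subunit Vbp1 (-0.28, adjusted p = 0.261).

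The cold-inducible transcripts moved in the opposite direction over the same arrays. Cirbp had 7.99, 8.06 and 8.20 in TSR at ZT7, against 8.85, 8.89 and 8.56 in CON, and fell by 0.68 ± 0.08 (adjusted p = 4.39e-06). Rbm3 had 10.30, 10.33 and 10.41 in TSR at ZT7, against 10.62, 10.68 and 10.65 in CON, and fell by 0.30. No TSR array reached a CON array in either gene. With 24 arrays neither was called at ZT7 (adjusted p = 0.145 for Cirbp and 1 for Rbm3 by limma). At ZT1 both were higher in TSR with 20 arrays, Cirbp by 0.47 and Rbm3 by 0.46. With 24 arrays the ZT1 difference was 0.59 in Cirbp and -0.36 in Rbm3, with neither called, and in Rbm3 the narrow TSR array had 8.21, against 10.20 to 10.25 in CON. Body temperature was not among the measurements, and its part in these differences was not tested.

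Markers of neighbouring regions and of cell types also moved at ZT7, where 13% of all genes rose and 13.9% fell with 20 arrays. Summed linear intensities of 6 forebrain cholinergic genes were 1671 to 1762 in TSR, against 416 to 448 in CON, and all 4 tested members rose. The same sum was 1480 to 1537 in TSR and 1188 to 1324 in CON at ZT1, so in CON it was lower at ZT7. Those of 8 suprachiasmatic genes were 1829 to 1863 in TSR, against 2963 to 3112 in CON, and all 7 tested members fell. Those of 10 ependymal genes were 517 to 571 in TSR, against 911 to 984 in CON, and all 6 tested members fell. In 7 neuronal genes the sum was 14599 to 15639 in TSR, against 12509 to 13165 in CON, with 4 members higher and 1 lower. In 7 cortical and thalamic genes it was 1115 to 1162 in TSR, against 835 to 901 in CON, with 3 of 6 tested members higher and 1 lower. Endothelial genes (8) summed to 1358 to 1362 in TSR, against 952 to 1165 in CON, with 3 of 7 higher. Oligodendrocyte genes (7) summed to 5320 to 5498 in TSR, against 4826 to 5424 in CON, with 3 of 7 higher. Astrocyte genes (7) summed to 6453 to 6697 in TSR, against 6618 to 7106 in CON, with 3 of 7 lower. Microglial genes (6) summed to 943 to 967 in TSR, against 873 to 897 in CON, with no call among 5. The arcuate and ventromedial genes that define the tissue summed to 1063 to 1109 in TSR, against 1042 to 1218 in CON, with 2 of 7 lower, and 7 of the 10 listed were above the filter. With 24 arrays, where 0.43% of all genes were called, 4 of 4 cholinergic, 2 cortical and thalamic and 2 endothelial genes were higher. Lower were 3 ependymal genes and 1 suprachiasmatic gene, and limma called 0 in the other lists. Regional markers thus differed between the groups at ZT7, and their part in the chaperone differences was not tested.

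At ZT1 few of these genes differed. With 24 arrays 0 of 59 genes were called by limma, and 0 at an unadjusted p under 0.05, with 0.0505% of all genes called. With 20 arrays 5 genes rose and 2 fell, where 6.98% and 3.12% of all genes did so, shares close to those of the 59 genes (8.5% and 3.4%). Hspa4l fell by 0.26 ± 0.06 (adjusted p = 0.0117) and Hsp90aa1, with 12.20 and 12.27 in TSR, against 12.41, 12.53 and 12.43 in CON, fell by 0.22 ± 0.04 (adjusted p = 0.0024). Dnajc8, a J-domain protein linked to pre-mRNA splicing, rose by 0.47, with 8.30 and 8.50 in TSR, against 7.79, 8.06 and 7.94 in CON. Dnajc9, a histone chaperone, rose by 0.32, with 7.78 and 7.74 in TSR, against 7.35, 7.56 and 7.40 in CON. In both, the wide TSR arrays lay above all CON arrays. Dnajc12, a partner of the aromatic amino acid hydroxylases, had 8.63 and 8.66 in TSR, against 8.36, 8.34 and 8.30 in CON (0.32), and Hspb6 (0.32) and Dnajc16 (0.27) rose too. The direction of the split depended on scaling: 5 genes rose and 10 fell after quantile normalization, 33.3% of calls higher, against 71.4% as deposited. The count of 7 was 2 and 1 without replicates 1 and 2 of TSR at ZT1. Narrow array 3 of TSR at ZT1 lay below the other TSR arrays in Hspa4l, at 8.63, and in Hsp90aa1, at 11.57. All Hsp90aa1 values at ZT1 are those of its kept probe set. Marker sums of the wide arrays did not overlap between TSR and CON at ZT1 in 8 of 10 lists. So few arrays can separate by chance, and no such share was counted over all genes. The oligodendrocyte sum was 7758 to 8064 in TSR, against 5665 to 5818 in CON (5 of 7 members higher), and the arcuate and ventromedial sum 851 to 878 in TSR, against 1161 to 1258 in CON (3 of 7 lower). The neuronal sum was 14344 to 14471 in TSR, against 15446 to 15669 in CON (2 of 7 lower), and the microglial sum 891 to 984 in TSR, against 1070 to 1110 in CON (2 of 5 lower). Their part in the differences at ZT1 was not tested.

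At ZT13 many genes of all kinds differed. With 24 arrays 0 of 59 were called by limma, 7 at an unadjusted p under 0.05, with 0.413% of all genes called. With 20 arrays, 18 rose and 11 fell (30.5% and 18.6%), where 24.2% and 22% of all genes did so, and the count of 29 was 19 without replicate 3 of TSR at ZT13. The inducible Dnajb1 had 7.81 and 7.83 in TSR, against 8.36, 8.54 and 8.60 in CON, and fell by 0.68 ± 0.12 (adjusted p = 0.000169). Dnajc30 fell by 0.75, with 8.27 and 8.71 in TSR, against 8.96, 9.40 and 9.34 in CON. Bag6 had 9.04 and 9.09 in TSR, against 9.57, 9.60 and 9.60 in CON, a fall of 0.53 ± 0.06 (adjusted p = 2.88e-06). The narrow TSR array lay lower still in each of these 3 genes, at 6.65, 7.49 and 8.64. Bag3 fell by 0.37 and Dnajb12, which sits in the membrane of the endoplasmic reticulum, by 0.46. Dnajb5 had 7.34 and 7.60 in TSR, against 7.79, 7.79 and 7.84 in CON, and fell by 0.34, and Dnajc16, Dnajc27, Dnajc4, Dnajb2 and Hspa2 fell by 0.30, 0.29, 0.25, 0.24 and 0.23. Dnajb9, a J-domain protein of the unfolded protein response, had 9.35 and 9.54 in TSR, against 8.84, 8.74 and 9.12 in CON, and rose by 0.55. Dnajc24, needed for diphthamide synthesis, had 8.30 and 8.34 in TSR, against 7.87, 7.76 and 7.68 in CON, and rose by 0.55. In Dnajb5, Dnajb9 and Dnajc24 the wide TSR arrays did not overlap the CON arrays. Others that rose were Dnajb4 (0.51), Dnajc19, of the mitochondrial import motor (0.48), Hspa9 (0.46) and Hspa4l (0.34). With the narrow array included the values of several turned negative, among them Hspa9 (-0.080), Hspa4l (-0.083) and Hsp90aa1 (-0.13, against 0.14). In the wide arrays the cholinergic sum at ZT13 was 1010 to 1098 in TSR, against 567 to 587 in CON, and the ependymal sum 649 to 659 in TSR, against 836 to 943 in CON. The cortical and thalamic sum was 1541 to 1622 in TSR, against 798 to 895 in CON (5 of 6 members higher), and the suprachiasmatic sum 1689 to 1776 in TSR, against 2301 to 2482 in CON (5 of 7 lower). The arcuate and ventromedial sum was 952 to 963 in TSR, against 1162 to 1255 in CON (3 of 7 lower), and the microglial sum 895 to 963 in TSR, against 1006 to 1079 in CON. The sums of the other 4 lists overlapped. No share of sums without overlap was counted over all genes, and the part of the markers in these differences was not tested.

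**Figure D3:**
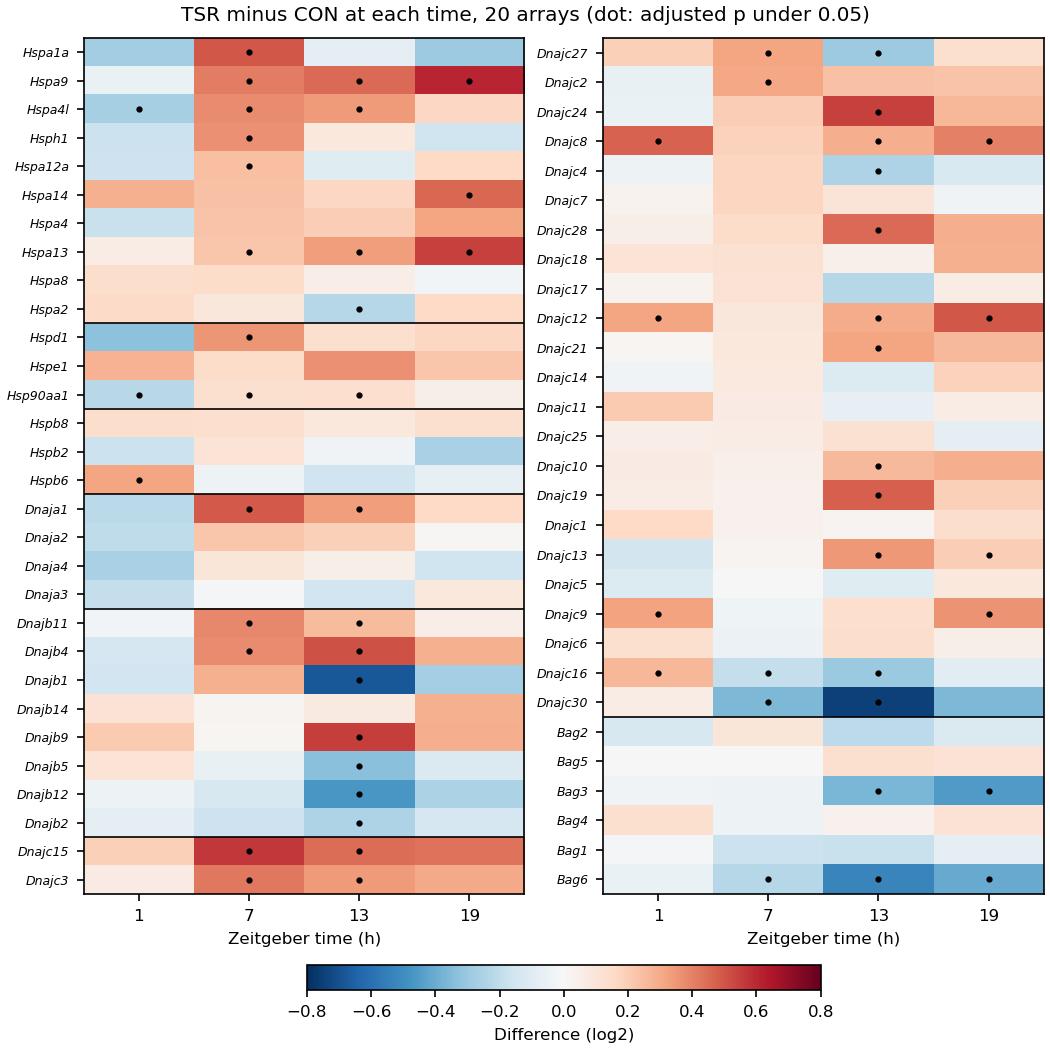
Difference between TSR and CON (log2, colour) for the 59 tested genes at each zeitgeber time in the 20-array fit, ordered by protein family and by the difference at ZT7, with a dot at an adjusted p under 0.05. Hspa1a, Hsph1 and Hspd1 carry a dot at ZT7 and at no other time, while Bag6 and Dnajc30 are blue at ZT7 and ZT13.

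At ZT19 the count rested on the narrow arrays. With 24 arrays 34 genes rose and 3 fell, where 44.4% and 11% of all genes did so and the median of all genes was 0.60. Quantile normalization took that median to 0.39, and then 28 rose and 7 fell, 80% of calls higher, against 91.9% as deposited. Hspa9 had 10.34, 10.20 and 10.24 in TSR, against 9.65, 7.69 and 7.67 in CON, and the 2 low values were the narrow arrays. Hspa13 rose by 2.02, and Hspa4 had 9.59, 9.49 and 9.45 in TSR, against 9.20, 7.23 and 7.18 in CON. The pattern was reversed in Hspb2, which fell by 0.93 with 24 arrays, with 5.37, 5.98 and 5.94 in TSR, against 6.02, 7.18 and 6.89 in CON. In Hspb2 the narrow arrays were the high ones. Hspa8 had 12.44, 12.43 and 12.35 in TSR, against 12.43, 11.14 and 10.98 in CON. The count of 37 was 0 without either narrow CON array and 0, 0 and 18 without TSR replicates 1, 2 and 3 of that time. With 20 arrays 7 rose and 2 fell, where 17.8% and 7.13% of all genes did so, and quantile normalization gave 10 and 5, 66.7% of calls higher, against 77.8%. The 7 were Hspa9 (0.61), Hspa13 (0.55), Dnajc12 (0.50), Hspa14 (0.46), Dnajc8 (0.40), Dnajc9 (0.36) and Dnajc13 (0.20), and the 2 were Bag3 (-0.45) and Bag6 (-0.40). Each of these rests on 1 CON array. The cholinergic sum in the wide arrays of ZT19 was 771 to 825 in TSR, against 482 in CON, and the ependymal sum 1068 to 1249 in TSR, against 941 in CON. The cortical and thalamic sum was 1235 to 1326 in TSR, against 802 in CON (5 of 6 members higher), the endothelial sum 1296 to 1383 in TSR, against 980 in CON (4 of 7 higher), and the arcuate and ventromedial sum 907 to 942 in TSR, against 1333 in CON (2 of 7 lower). In 9 of 10 lists the CON array lay outside the TSR range, which a single array can readily do by chance. No such share was counted over all genes, and the part of these markers was not tested. Bag6 was 0.60 with 24 arrays, with the opposite sign.

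**Figure D4:**
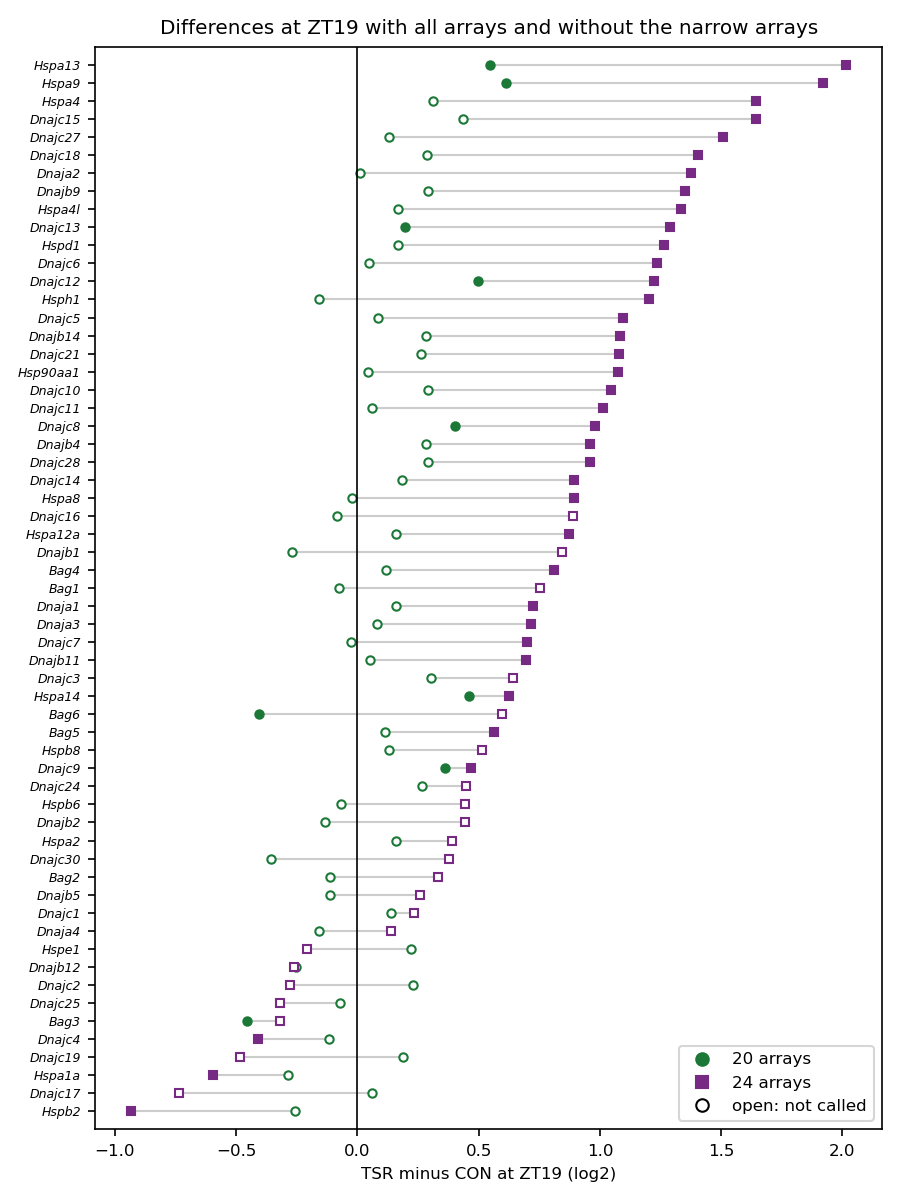
Difference between TSR and CON at ZT19 (log2) for each of the 59 tested genes with 24 arrays (squares) and with 20 arrays (circles), filled where called at an adjusted p under 0.05. Hspa9 was at 1.92 with 24 arrays and at 0.61 with 20, and most squares lie right of their circles.

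Averaged over the 4 times, 24 arrays called only Dnajb12, which fell by 0.27, with 2.41% of all genes called, and leaving out 1 array gave 0 to 4 calls. With 20 arrays 25 genes rose and 7 fell (42.4% and 11.9%), where 33.6% and 22.9% of all genes did so. The genes with the largest positive averages were Dnajc15 (0.41), Hspa9 (0.35), Dnajc8 (0.34), Dnajc12 (0.30), Hspa13 (0.29), Hspa14 (0.29) and Dnajc3 (0.28). Bag6, which averaged -0.30, Dnajc30, which averaged -0.35, and Dnajb12 and Bag3, both at -0.22, led the genes that fell.

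The effect of TSR differed between the 4 times in 25 of 59 genes with 20 arrays (42.4%), where 29.9% of all genes passed that test. With 24 arrays 0 of 59 passed by limma, 26 at an unadjusted p under 0.05, with 0.261% of all genes called. The smallest adjusted p-values were those of Hspa4l (7.71e-05), Hsp90aa1 (0.000449) and Dnajc13 (0.00071), a J-domain protein of endosomes. The count of 25 was 13 and 15 without replicates 1 and 2 of TSR at ZT1 and 16 without replicate 3 of CON at ZT1. Levels varied with time of day in 24 of 59 genes in CON (40.7%), where 29.9% of all genes did, led by Dnajb1 (adjusted p = 9.79e-06), Hspa4l (0.000169) and Hsp90aa1 (0.000464). In TSR they varied in 12 of 59 (20.3%), where 24.4% of all genes did, led by Hspb8 (0.000599), Hsp90aa1 (0.00199) and Dnajc13 (0.00428). The TSR count was 6 and 5 without replicates 1 and 2 of ZT1 and 19 without replicate 3 of CON at ZT7. With 24 arrays 0 of 59 passed in either condition, 33 in CON and 1 in TSR at an unadjusted p under 0.05, with 0.286% and 0.118% of all genes called. Dnajc13 had 15 probe sets, whose TSR minus CON differences at ZT7 ran from -0.26 to 0.46, with 0.02 in the one kept. Those of Hsp90aa1 were 0.13 in the probe set kept and 0.08 and -0.03 in its others. The tests of both genes given here are those of the probe set kept. Whether more genes varied in CON than in TSR was not tested as such, apart from the gene-wise difference between times given above.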

How the data were processed

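RNA of the mediobasal hypothalamus was measured on 24 Affymetrix arrays, with biotin label added by an Affymetrix GeneChip WT kit, per the labels' protocols. The deposited values are log2 probe-set signals, normalized across arrays by the authors with Affymetrix Expression Console, per the submitters' processing notes; its version and summarization method are not stated there. Condition came from each array's description, and time and replicate number from its title.

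In some deposited cells the decimal point was misplaced. It was put back from the other arrays in 2649 of 853344 cells (0.310%), 83 further cells were set to missing and 9 were missing as deposited. Of the member values, 4 were restored and 0 were missing.

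The array's annotation gave 1 symbol to 21789 probe sets, several to 1621 and none to 12146, and only the first were used. Models were fitted with limma 3.58.1 in R 4.3.3 to 8 group means with a trend on the mean level, after a test on simulated data. Tests were 2-sided. Every column of values belonged to a labelled array. The members, roles and gene lists were chosen with earlier results of these data known. Values in each array were to be given for a fixed list of 15 measured genes, for the 3 largest changes in each direction at each time and for the 3 smallest p-values of each F test, and not every one of them is printed. Hspa12a, Dnajc2, Dnajc3, Dnajb11, Dnajc27, Dnaja2 and Hspb6 are named by role. Alternatives covered the filter, quantile normalization, probe sets, restored cells, array weights, a replicate block and leaving out each array.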

Additional observations from a re-analysis of the deposited data

Results flagged for a closer look

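The 20 genes below had an effect of TSR that differed between times by the interaction test of limma in the 20-array fit, where 29.9% of all genes passed. The smallest adjusted p-values were those of Hspa4l (7.71e-05), Hsp90aa1 (0.000449) and Dnajc13 (0.00071). In Hspa4l the difference was -0.26 at ZT1, 0.38 at ZT7, 0.34 at ZT13 and 0.17 at ZT19. In Hsp90aa1, by its kept probe set, it was -0.22, 0.13, 0.14 and 0.05. The remaining adjusted p-values were as follows: for Dnajb1 0.00189, Dnajc16 0.00281, Hspa9 0.00297, Bag6 0.00339, Hsph1 0.00377, Dnaja1 0.00861, Dnajc24 0.0104, Hspd1 0.0111, Dnajc12 0.0256, Hspa1a 0.0264, Hspa12a 0.0265, Dnajb5 0.0286, Dnajc30 0.0333, Dnajc4 0.0368, Dnajb4 0.0465, Hspa2 0.0466, Dnajb12 0.0488. Dnajb1 had a difference of 0.28 at ZT7 and of -0.68 at ZT13. None passed with all 24 arrays, where limma called 0 of the 59 genes and 26 had an unadjusted p under 0.05. CON at ZT19 was 1 array in the 20-array fit. The list holds only those passing genes that were also chosen for values in each array. That choice drew in part on the smallest p-values of this same test. Further genes passed, and the share over all 59 was 42.4%, which is the one to set against that of all genes.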

How the results depend on the processing

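Counts are of the 59 tested genes called. In the 24-array fit, array weights gave 14 at ZT1, 18 at ZT7, 28 at ZT13, 48 for the average, 57 for the difference between times, 26 for time of day in TSR and 58 in CON. Leaving out the 4 narrow arrays gave 7 at ZT1, 18 at ZT7, 29 at ZT13, 9 at ZT19, 32 for the average, 25 for the difference between times, 12 for time of day in TSR and 24 in CON. Fits to the 6 arrays of a time gave 11 at ZT7 and 0 at ZT19, where 27 had an unadjusted p under 0.05. Without the filter the average count was 0, with quantile normalization 5, and quantile normalization gave 1 for time of day in CON. In the 20-array fit, quantile normalization gave 15 at ZT1, 15 at ZT19, 21 for time of day in TSR and 20 for the difference in change between ZT1 and ZT7. Other settings kept each count within 1.5 times.

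Leaving out 1 of 24 arrays gave 0 to 0 at ZT1 and ZT7 and for time of day in TSR, 0 to 2 at ZT13, 0 to 50 at ZT19, 0 to 4 for the average, 0 to 48 for the difference between times and 0 to 49 for time of day in CON. Among these, the count at ZT13 was 1 without replicate 1 of CON at ZT19 and 2 without replicate 3 of TSR at ZT1. The difference between times had 48 and time of day in CON 49 without replicate 1 of CON at ZT19, and the CON count was 34 without replicate 3 of TSR at ZT1 and 30 without replicate 2 of TSR at ZT13. Leaving out 1 of 20 arrays gave 1 to 9 at ZT1, 10 to 21 at ZT7, 19 to 30 at ZT13, 6 to 13 at ZT19, 28 to 33 for the average, 13 to 26 for the difference between times, 5 to 19 for time of day in TSR, 19 to 27 in CON, 1 to 11 for ZT7 minus ZT1 in TSR, 9 to 19 in CON and 8 to 16 for their difference. Tests that need the single CON array of ZT19 were not fitted without it.

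The replicate block could not be read as pairing, since same-numbered arrays correlated over 0.1 in 5 of 12 pairs of the 24 arrays and 2 of 7 of the 20. With the replicate block the 20-array fit called 7 at ZT1, 17 at ZT7, 30 at ZT13 and 6 at ZT19, and the 24-array fit 38 at ZT19.

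Of 99 called differences of the named genes in the 20-array fit, 99 kept their call with restored cells blank, 95 with quantile normalization, 94 with the mean of all probe sets, 91 with the replicate block and 85 without the filter. With all 24 arrays 7 kept it, 76 were no longer called and 16 changed sign. The changed values were, at ZT13, Dnajc12 -0.20, Dnajc13 -0.20, Dnajc15 -0.17, Dnajc8 -0.15, Hsp90aa1 -0.13, Hspa13 -0.23, Hspa4l -0.083 and Hspa9 -0.080; at ZT1, Dnajc12 -0.35 and Dnajc16 -0.28; at ZT19, Bag6 0.60; between ZT1 and ZT7 in TSR, Dnajc12 0.33, Dnajc16 0.19, Dnajc8 0.062 and Hspb8 0.11; and in the difference of that change, Dnajc16 0.094. The cause was not tested. With 3 arrays or fewer in a group, their number limits the precision.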

Other observations

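Of 19 tested HSP90 co-chaperones and heat shock factors, 7 were lower at ZT7 than at ZT1 in CON (36.8%) and 0 higher with 20 arrays, where 8.98% and 4.5% of all genes were, and the median change was -0.11. In TSR limma called 0 of them, 6 at an unadjusted p under 0.05. With 24 arrays it called 0 in either condition, 0 at an unadjusted p under 0.05. St13 had 8.70, 8.83 and 8.80 in CON at ZT7, against 9.23, 9.14 and 9.23 at ZT1, while in TSR it had 9.21, 9.33 and 9.31 at ZT7, against 8.93 and 9.06 at ZT1 in the wide arrays. Fkbp4 had 8.31, 8.14 and 8.14 in CON at ZT7, against 8.66, 8.62 and 8.49 at ZT1. The difference in this change passed in 3 of the 19 (15.8%), 2 more positive in TSR (10.5%) and 1 more negative (5.3%), where 6.07% and 9.97% of all genes were, so the count was near that over all genes. With 24 arrays limma passed 0, and 0 at an unadjusted p under 0.05. Of 14 CCT and prefoldin subunits, 4 were higher (28.6%) and 1 lower (7.1%) in TSR than in CON at ZT13 with 20 arrays, where 24.2% and 22% of all genes were, and limma called 0 with 24, 1 at an unadjusted p under 0.05. At ZT19, 4 were higher (28.6%) with 20 arrays, where 17.8% of all genes were and CON was 1 array, and 9 were higher (64.3%) with 24, where 44.4% of all genes were.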
